A study of Mus musculus with 8 samples.

Results

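Mitochondria keep a small circular genome of their own, and the transcripts described here are the mRNAs and ribosomal RNAs read from it. The 9 genes are the 2 ribosomal RNA genes mt-Rnr1 and mt-Rnr2 and the 7 mRNA genes mt-Nd1, mt-Nd2, mt-Nd4, mt-Nd5, mt-Nd6, mt-Co1 and mt-Cytb. They were taken by name from the 13227 genes of the deposited count tables, and all 9 passed the filter on low counts. The annotation lists 13 mRNA genes and 22 tRNA genes on the mitochondrial chromosome. Of these, 6 mRNA genes, mt-Nd3 among them, and all tRNA genes except mt-Tc and mt-Tp were not analysed here.

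The hearts are labelled as those of adult male mice of the inbred FVB/N strain, 3 months of age. The transgenic group (TG) held 4 hearts, lettered A, B, C and E, from mice with a FASTKD1 transgene that the series title calls cardiac-specific. The non-transgenic group (NTG) held 4 hearts, lettered A, B, D and E. RNA sequencing libraries were made from hearts, and the sources used here do not give the promoter or the number of transgenic lines. The labels do not say whether each letter is a separate animal, so the tests measure the spread between these 8 libraries.

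Both strands of mitochondrial DNA are transcribed into long precursors that carry rRNAs, mRNAs and tRNAs in a row. Most tRNAs lie between the other genes, and cutting them out releases the mRNAs and rRNAs, a scheme known as tRNA punctuation. After cutting, the level of each RNA also depends on its own stability, for which RNA-binding proteins such as LRPPRC and members of the FASTK family are known. FASTKD1 belongs to this family, and in human cell lines its loss is known to raise the mRNA of ND3. The heart, which depends on oxidative phosphorylation, is among the tissues richest in mitochondrial transcripts.

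The first sequence is shown because it holds an rRNA and an mRNA of 1 precursor side by side. It runs over chrMT:2656-2770 of GRCm38 on the plus strand, from the end of mt-Rnr2 through the leucine tRNA gene mt-Tl1, in capitals, to the start of mt-Nd1. The sequences here are from the GENCODE M21 transcripts, and all positions are on GRCm38.
mt-Rnr2, mt-Tl1 and mt-Nd1 junction: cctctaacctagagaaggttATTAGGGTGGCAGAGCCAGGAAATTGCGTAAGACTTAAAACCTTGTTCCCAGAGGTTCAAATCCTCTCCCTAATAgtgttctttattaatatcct
The 4 mRNA starts that follow belong to the genes whose proportions the results turn on, with mt-Cytb as the one set against them, and their first codon is in capitals. They lie at chrMT:2751-2795, chrMT:11742-11786, chrMT:5328-5372 and chrMT:14145-14189 in the order printed. In this annotation each mRNA begins with its first codon, and mt-Nd4 and mt-Cytb end 1 base into their stop codon.
mt-Nd1 start: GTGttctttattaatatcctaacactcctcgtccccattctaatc
mt-Nd5 start: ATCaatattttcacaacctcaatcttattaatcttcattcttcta
mt-Co1 start: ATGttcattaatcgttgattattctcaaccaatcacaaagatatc
mt-Cytb start: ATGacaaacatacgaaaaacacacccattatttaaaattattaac

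A pair of sequences shows where counts of mt-Nd5 and mt-Nd6 share bases. mt-Nd6 is the only member transcribed from the other strand, on the minus strand at 13552 to 14070, and its last bases lie opposite the end of mt-Nd5 at 11742 to 13565. The overlap of 14 bases, chrMT:13552-13565, is in capitals in the last 40 bases of each mRNA.
mt-Nd5 end: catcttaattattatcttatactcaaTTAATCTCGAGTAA
mt-Nd6 end: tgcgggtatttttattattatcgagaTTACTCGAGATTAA
The sources used here do not say whether the libraries mark strand. Without strand, reads of the mt-Nd6 mRNA and reads of heavy-strand precursor RNA that runs through the mt-Nd6 region cannot be told apart.

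Copies of mitochondrial DNA in the nuclear genome share long stretches with some members. The first 876 bases of mt-Nd4 are identical to the pseudogene Gm28439 (chr1:24611535-24612410), which was not analysed here, and 62.2% of its windows of 50 bases are found in another annotated transcript. For mt-Co1 this share is 51.1%, mostly through Gm29216 on chromosome 1 (486 of 492 bases the same) and Gm13340 on chromosome 2 (1508 of 1545 bases the same). mt-Nd1, mt-Nd6, mt-Cytb and mt-Rnr1 share no such window, and the shares of mt-Nd2, mt-Nd5 and mt-Rnr2 are 8.19%, 7.61% and 1.04%. The next stretch is shown because it holds the bases by which mt-Co1 (chrMT:6381-6440) and Gm29216 (chr1:24616138-24616197, minus strand) differ, in capitals, before an identical run.
mt-Co1 stretch: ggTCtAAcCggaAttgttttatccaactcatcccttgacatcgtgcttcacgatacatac
Gm29216 stretch: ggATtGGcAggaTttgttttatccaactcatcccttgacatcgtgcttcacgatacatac
A read that matches both places may be lost or given to either, which touches the level of mt-Co1 and mt-Nd4 in all hearts. Counts of these mt-Co1 copies were low: Gm13340 had 326 to 439 counts in TG hearts and 420 to 555 in NTG hearts, and Gm29216 had 36 to 59 in TG hearts and 35 to 72 in NTG hearts. Reads lost for matching several places would not be in these counts.

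Fastkd1, which codes for the overexpressed protein, checked the labels. In CPM, counts scaled to library size by the TMM method, it stood at 10026, 9341, 8845 and 11516 in TG hearts A, B, C and E, against 26.3, 30.2, 192 and 33.8 in NTG hearts A, B, D and E. All TG hearts lay far above all NTG hearts (log2 fold change 7.14, SE 0.75, edgeR adjusted p = 0.000684). The heart labelled NTG D was the highest of its group, and although labelled male it had 0 counts summed over Uty, Kdm5d, Eif2s3y and Ddx3y on the Y chromosome. The other 7 libraries had 10372 to 15914 such counts. The total mitochondrial share of counts, the CPM fold changes and the number of pairs that passed are given with and without NTG heart D. The shares of single genes among the mitochondrial genes, their sums by complex and the folds of single ratios include this library. So do the levels per length and the test scaled to the summed mitochondrial counts. Total counts per library were 44584359 to 55769859 in TG hearts and 45802079 to 50830215 in NTG hearts.

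The share of all counts taken by the 9 genes together did not differ between groups beyond the spread between hearts. It was 27.0%, 24.0%, 21.9% and 23.0% in TG hearts A, B, C and E, and 25.3%, 30.0%, 18.5% and 21.2% in NTG hearts A, B, D and E. The means were 24.0% ± 2.19 in TG hearts and 23.8% ± 5.01 in NTG hearts (SD, n = 4 each). The NTG hearts held both the highest and the lowest share, and all TG hearts lay between them. Without NTG heart D the difference changed sign, to -1.54 percentage points for TG minus NTG, from 0.206 with all hearts, and it lay within the spread between hearts either way. In bulk heart RNA, a smaller number of cells of a type and less RNA per cell cannot be told apart.

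**Figure D1:**
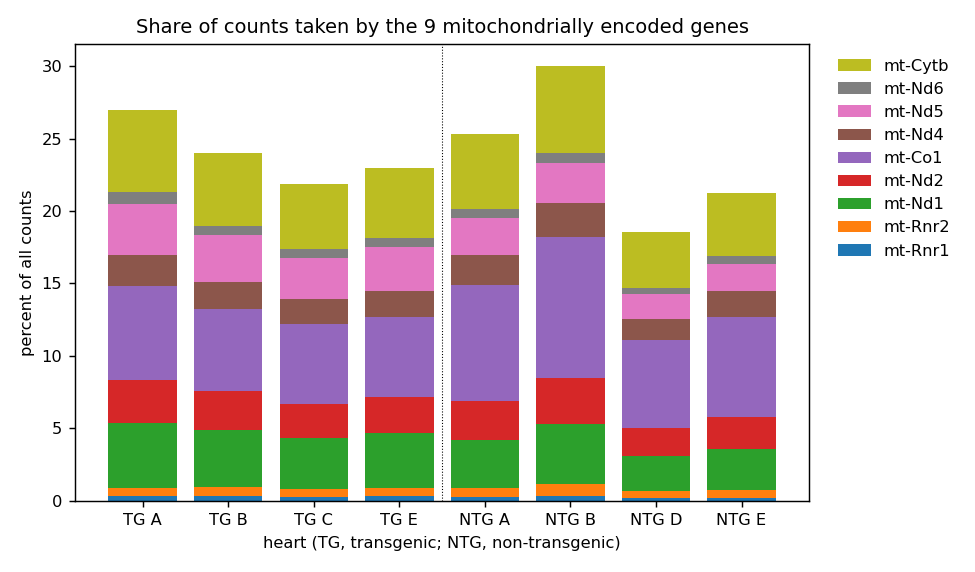
Stacked bars show the percent of all counts taken by each of the 9 mitochondrially encoded genes in each heart, TG hearts on the left and NTG hearts on the right. The total runs from 21.9% to 27.0% in TG hearts and from 18.5% to 30.0% in NTG hearts, and the mt-Co1 segment takes a smaller part of each TG bar.

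Levels of single members varied more between NTG hearts than between TG hearts. The SD was 7.36% to 16.3% of the mean CPM in TG hearts and 31.2% to 36.4% in NTG hearts. NTG heart B was the highest NTG heart and NTG heart D the lowest for each of the 9 genes. This spread set what a test of CPM could detect, since all 9 genes went up and down together over the NTG hearts. In TG hearts the mRNAs were highest in heart A and the rRNAs in heart B, with all 9 genes lowest in heart C.

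In the test across 13226 genes, 0 of the 9 members passed the threshold of 0.05 on the edgeR adjusted p, where 1.25% of all tested genes did. DESeq2 and limma-voom also called 0 of 9. In the edgeR test 1 member, mt-Co1, had an unadjusted p under 0.05, as had 10.7% of all genes. For 0 of 9 members did the CPM of TG and NTG hearts fail to overlap, against 7.38% of all genes. The median log2 fold change of the members was -0.06, beside 0.01 over all genes. Also without NTG heart D, 0 of 9 passed; the log2 fold changes were then 0.04 for mt-Nd1, -0.22 for mt-Nd2, -0.28 for mt-Nd4, 0.22 for mt-Nd5, -0.01 for mt-Nd6, -0.67 for mt-Co1, -0.21 for mt-Cytb, 0.15 for mt-Rnr1 and -0.45 for mt-Rnr2. Each was lower than with all hearts.

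The rRNAs are the cores of the mitochondrial ribosome, mt-Rnr1 of its small subunit and mt-Rnr2 of its large subunit. mt-Rnr1 had 3350.1, 3556, 2697 and 3368 CPM in TG hearts A, B, C and E, against 2677, 3836, 1788 and 2171 CPM in NTG hearts A, B, D and E. mt-Rnr2 had 5515, 5785, 4843 and 5410.2 CPM in TG hearts, against 6674, 9975, 4552 and 5258 CPM in NTG hearts in the same order. Both ranges in TG hearts lay inside the NTG ranges. mt-Rnr1 had a log2 fold change of 0.31 and mt-Rnr2 one of -0.30 (SE 0.21 each), with edgeR adjusted p of 0.689 and 0.714.

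Of the mRNAs, 5 code for membrane subunits of complex I, the enzyme that takes electrons from NADH. mt-Nd5, the subunit at the far end of the membrane arm, had 36077, 31192, 26689.9 and 29149.7 CPM in TG hearts A, B, C and E. In NTG hearts A, B, D and E it had 28072, 32099, 15312 and 18536 CPM. The ranges overlapped through NTG hearts A and B, with a log2 fold change of 0.39 (SE 0.22; edgeR adjusted p = 0.602). mt-Nd1, which lies where the membrane arm joins the matrix arm, averaged 38521 ± 5093 CPM in TG hearts and 33307 ± 11777 CPM in NTG hearts (SD, n = 4 each). Its log2 fold change of 0.21 (SE 0.22) did not pass (edgeR adjusted p = 0.819). mt-Nd2, mt-Nd4 and mt-Nd6 had log2 fold changes of -0.06, -0.11 and 0.16, with edgeR adjusted p of 0.960, 0.907 and 0.868. None of these 5 genes differed in CPM beyond the spread between hearts.

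mt-Cytb, the mitochondrially encoded subunit of complex III, averaged 48879 ± 6303 CPM in TG hearts and 50828 ± 15844 CPM in NTG hearts (SD, n = 4 each; log2 fold change -0.06, SE 0.20, edgeR adjusted p = 0.956). mt-Co1, the catalytic core of complex IV, had 65639, 55294, 52359.9 and 52524 CPM in TG hearts A, B, C and E. In NTG hearts A, B, D and E it had 87165, 114104, 55186 and 67153 CPM. Only NTG heart D lay within the TG range, and all 4 TG hearts were under NTG heart E. mt-Co1 thus had a log2 fold change of -0.52 (SE 0.20; edgeR adjusted p = 0.388), -0.67 without NTG heart D (edgeR adjusted p = 0.108) and -0.31 without NTG heart B (edgeR adjusted p = 0.488).

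The proportions of the 7 mRNAs were more even between the hearts of a group than their levels, and proportions among the 9 genes differed between the groups. Each gene was next given as a percent of the summed counts of the 9 genes in its own library, a measure that does not depend on depth or scaling. On this scale mt-Co1 was lower in TG hearts, and mt-Nd5, mt-Nd1, mt-Rnr1 and mt-Nd6 were higher, with no overlap between groups for these 5 genes. The same quantity, counts over the summed counts of the 9 genes, did not overlap between groups for 2.44% of all tested genes. The members are part of this sum and other genes are not, so that share is not a like-for-like reference. Shares of 1 sum are tied to each other, so a fall in the share of 1 gene raises the summed share of the others.

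mt-Co1 held 24.0%, 23.5%, 25.4% and 23.8% of the summed counts in TG hearts A, B, C and E, against 31.6%, 32.4%, 33.0% and 32.7% in NTG hearts A, B, D and E. Even the highest TG heart, C, lay well under the lowest NTG heart, A. The mean was 24.2% ± 0.8291 in TG hearts and 32.4% ± 0.618 in NTG hearts (SD, n = 4 each), a ratio of 0.745. This and the ratios of shares that follow come from the mean log2 shares of the groups, not from the printed means. mt-Co1 was the largest member in each of the 8 libraries by this count.

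mt-Nd5 held 13.2%, 13.3%, 12.9% and 13.2% in TG hearts A, B, C and E, against 10.2%, 9.12%, 9.16% and 9.03% in NTG hearts A, B, D and E. All TG hearts lay above NTG heart A, which stood apart from the other NTG hearts. The mean was 13.2% ± 0.146 in TG hearts and 9.37% ± 0.538 in NTG hearts (SD, n = 4 each), a ratio of 1.41.

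mt-Nd1 held 16.6%, 16.5%, 16.3% and 16.4% in TG hearts A, B, C and E, against 13.1%, 13.8%, 13.0% and 13.1% in NTG hearts A, B, D and E. Within each group the hearts lay close together, with an SD of 0.929% of the mean in TG hearts and 2.78% in NTG hearts. The ratio of shares was 1.24. mt-Nd6, the light-strand member, held 3.04%, 2.81%, 2.82% and 2.81% in TG hearts and 2.52%, 2.39%, 2.34% and 2.35% in NTG hearts, in the same order of letters. Heart A was the highest of its group for mt-Nd6 in both groups, and the ratio of shares was 1.19.

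mt-Rnr1 held 1.23%, 1.51%, 1.31% and 1.53% in TG hearts A, B, C and E, against 0.971%, 1.09%, 1.07% and 1.06% in NTG hearts A, B, D and E, a ratio of shares of 1.33. The TG hearts lay above the NTG hearts but were the less even group here. The other 4 members overlapped between groups: mt-Cytb averaged 20.9% ± 0.202 in TG hearts and 20.4% ± 0.336 in NTG hearts, and mt-Nd2 averaged 10.8% ± 0.246 in TG hearts and 10.5% ± 0.289 in NTG hearts (SD, n = 4 each). mt-Nd4 averaged 7.88% ± 0.103 in TG hearts and 7.96% ± 0.260 in NTG hearts, and mt-Rnr2 2.32% ± 0.207 in TG hearts and 2.63% ± 0.182 in NTG hearts.

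**Figure D2:**
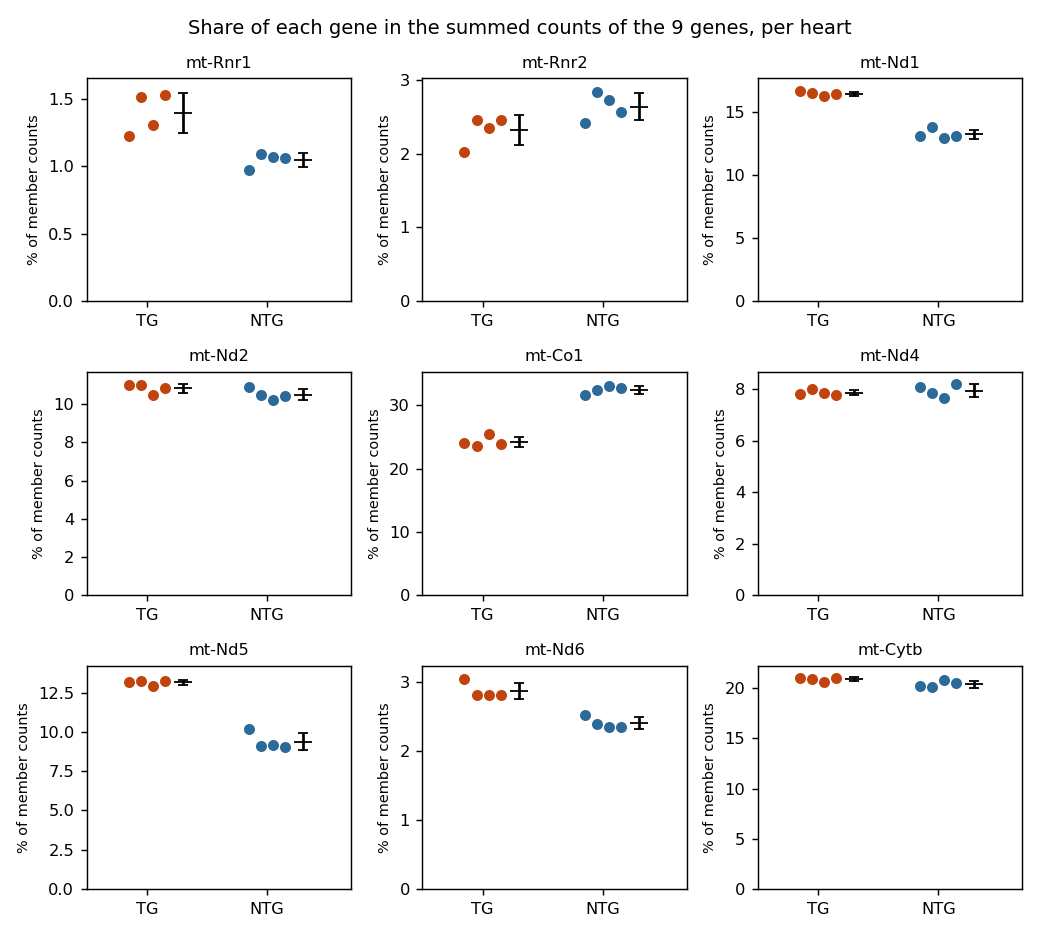
Each panel plots 1 gene as a percent of the summed counts of the 9 genes, with 1 point per heart, TG left and NTG right, and the mean with SD bars beside the points. The mt-Co1 points lie at 23.5% to 25.4% in TG hearts and 31.6% to 33.0% in NTG hearts, and the mt-Nd5 points at 12.9% to 13.3% in TG hearts and 9.03% to 10.2% in NTG hearts.

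Summed by complex, the 5 complex I mRNAs made up 51.2% ± 0.615 of member counts in TG hearts and 43.5% ± 1.03 in NTG hearts (SD, n = 4 each). The lowest TG heart had 50.4% and the highest NTG heart 44.8%. Most of that difference in share lay in mt-Nd1 and mt-Nd5, which together held 29.6% ± 0.284 in TG hearts and 22.6% ± 0.565 in NTG hearts. The lower mt-Co1 share by itself raises the summed share of the others. As a percent of all counts the 5 complex I mRNAs overlapped between groups. They held 12.3% ± 1.25 in TG hearts and 10.4% ± 2.32 in NTG hearts (two-sided exact permutation test, p = 0.229). The sums by complex leave out mt-Nd3 and the other mRNA genes not analysed here, and mt-Co1 is the only member of complex IV. The 2 rRNAs together held 3.71% ± 0.346 in TG hearts and 3.68% ± 0.231 in NTG hearts, with overlap. The sum of the mRNAs was 26.1 ± 2.67 times that of the rRNAs in TG hearts and 26.2 ± 1.74 times in NTG hearts, so the balance of mRNA to rRNA did not differ beyond the spread.

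The edgeR test was also run with each library scaled to the summed counts of the 9 genes in place of all genes. Of the 9 members, 2 passed, where 0.439% of all tested genes did on this scale. The members are part of this scale and other genes are not, so that share is not a like-for-like reference. mt-Nd5 rose by 0.49 on the log2 scale (edgeR adjusted p = 0.00756) and mt-Co1 fell by 0.42 (edgeR adjusted p = 0.00396). mt-Nd1 had a log2 fold change of 0.31 with an edgeR adjusted p of 0.117, and the other 6 did not pass.

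**Figure D3:**
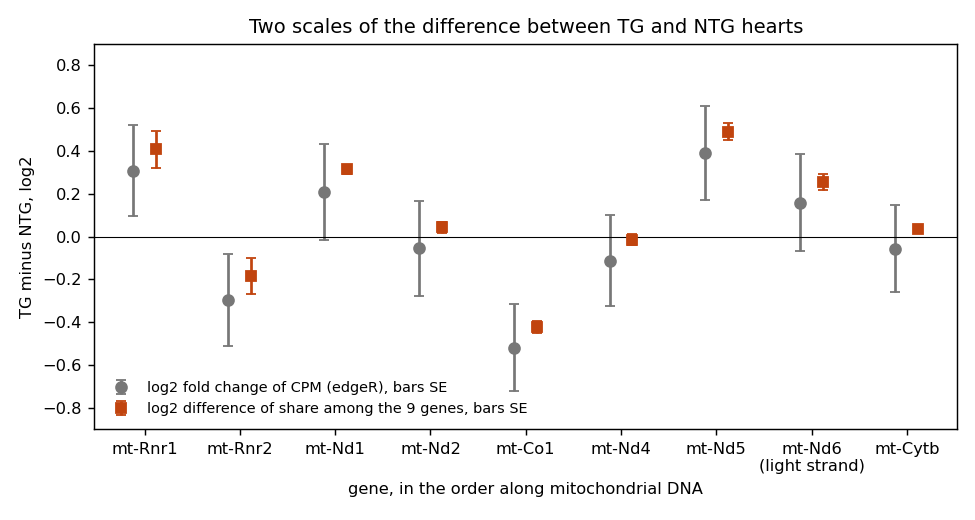
For each gene, in the order along mitochondrial DNA, the grey circle is the log2 fold change of CPM from edgeR and the orange square the log2 difference of the share among the 9 genes, both TG minus NTG, with SE bars. Each square lies above its circle, and the bars of CPM, with SE of 0.20 to 0.23, are the wider ones; mt-Co1 is lowest on both scales at -0.52 and -0.42, and mt-Nd5 highest at 0.39 and 0.49.

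The log2 ratio of each pair of members was then compared between groups by a two-sided exact permutation test, which has 70 arrangements for 8 libraries. A ratio within 1 library does not depend on its depth. Of 36 pairs, 26 (72.2%) did not overlap between groups and had the smallest p the test allows, 0.0286, or 0.0396 adjusted over the 36 pairs. The pairs share members, so they are not independent, and the adjusted p rests on how many of them tie at the smallest p. mt-Nd5 and mt-Co1 were each in 7 of the pairs without overlap. Over all pairs of tested genes, 8.23% did not overlap. The members had high counts and went up and down together, so that share is not a like-for-like reference. Without NTG heart D, 25 pairs passed and 27 did not overlap. Without both NTG heart D and TG heart A, 30 of 36 pairs did not overlap, and the smallest p of that design is 0.1. Groups of fewer libraries fail to overlap more easily, so these counts cannot be set against the count with all hearts. The share over all pairs of tested genes was not counted with libraries left out.

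The largest difference was in mt-Nd5 over mt-Co1, at 0.92 on the log2 scale. Per 1000 mt-Nd5 counts there were 1819, 1773, 1962 and 1802 mt-Co1 counts in TG hearts A, B, C and E, against 3105, 3555, 3604 and 3623 in NTG hearts A, B, D and E. The groups lay far apart, and even the highest TG heart, C, was under the lowest NTG heart, A. mt-Co1 was lower in TG hearts against 7 of the 8 other members. The exception was mt-Rnr2, with a log2 ratio difference of -0.24 for mt-Co1 over mt-Rnr2 and overlap between groups.

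The members fell in order by their ratios to each other. mt-Nd5, mt-Rnr1, mt-Nd1 and mt-Nd6 stood highest in TG hearts relative to the rest; of the 6 pairs among these 4 genes, those of mt-Nd5 with mt-Nd1 and with mt-Nd6 did not overlap. mt-Nd5 over mt-Nd1 was 0.18 higher in TG hearts on the log2 scale and mt-Nd5 over mt-Nd6 0.23 higher. mt-Nd2, mt-Nd4 and mt-Cytb kept nearly the same proportions to each other, with log2 differences of 0.06 for mt-Nd2 over mt-Nd4, 0.01 for mt-Nd2 over mt-Cytb and -0.05 for mt-Nd4 over mt-Cytb, and overlap in all. mt-Rnr2 was lower in TG hearts against mt-Nd5, mt-Rnr1, mt-Nd1, mt-Nd6 and mt-Cytb, and mt-Co1 stood lowest.

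The rRNA pair is of interest because both genes lie next to each other in 1 precursor. mt-Rnr2 counts per mt-Rnr1 count were 1.65, 1.63, 1.80 and 1.61 in TG hearts A, B, C and E, against 2.49, 2.60, 2.55 and 2.42 in NTG hearts A, B, D and E. All TG hearts lay under all NTG hearts, and the fold was 0.663 (log2 difference -0.59). mt-Nd1 and mt-Rnr2, the genes that flank the tRNA in the junction printed above, also changed against each other. mt-Nd1 counts per mt-Rnr2 count were 8.24, 6.71, 6.93 and 6.70 in TG hearts and 5.41, 4.87, 4.76 and 5.12 in NTG hearts, a fold of 1.41.

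mt-Nd4 and mt-Nd5 are neighbours on the heavy-strand precursor, and their ratio also shifted. mt-Nd4 counts per mt-Nd5 count were 0.593, 0.606, 0.607 and 0.590 in TG hearts A, B, C and E, against 0.797, 0.860, 0.835 and 0.911 in NTG hearts A, B, D and E, a fold of 0.705. mt-Nd5 counts per mt-Cytb count were 0.629, 0.633, 0.628 and 0.628 in TG hearts and 0.503, 0.454, 0.440 and 0.441 in NTG hearts, a fold of 1.37. The 4 TG hearts had an SD of 0.00231 in this ratio and the 4 NTG hearts an SD of 0.0299. mt-Nd2 counts per mt-Co1 count were 0.448 ± 0.0245 in TG hearts and 0.324 ± 0.0151 in NTG hearts (SD, n = 4 each), a fold of 1.38.

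**Figure D4:**
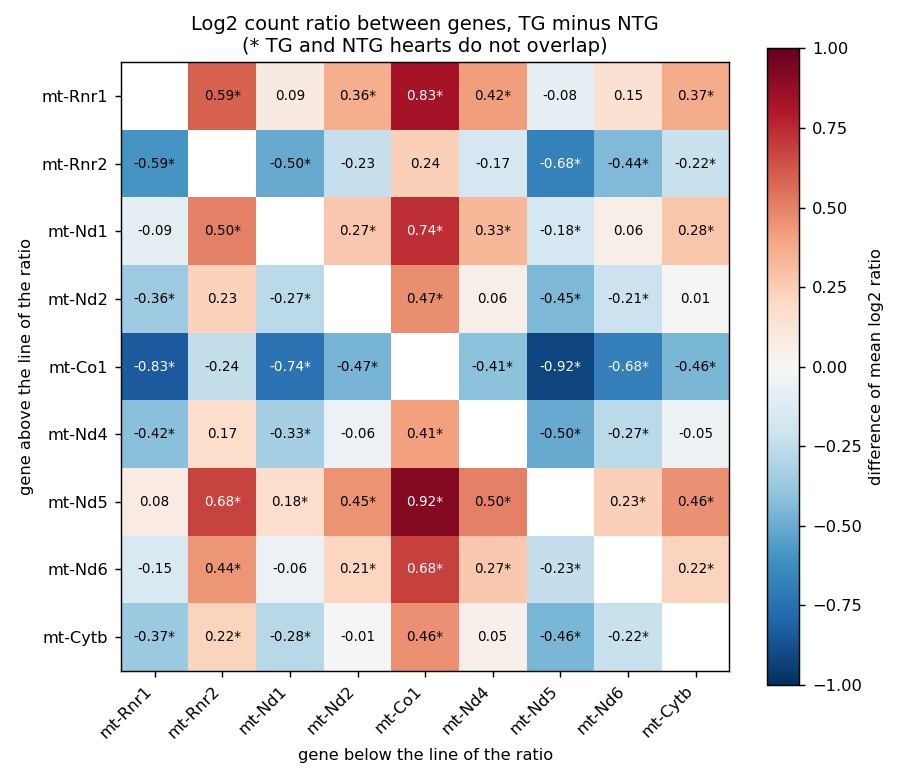
Each square gives the difference of the mean log2 count ratio, TG minus NTG, for the row gene over the column gene, with a star where the hearts of the groups do not overlap. The mt-Co1 row is blue throughout except for the blank diagonal, with differences of -0.24 to -0.92, and the mt-Nd5 row holds the largest positive value, at 0.92 over mt-Co1.

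mt-Nd6, the member read from the light strand, was set against the other 6 mRNAs. Its counts per count of the other mRNAs were 0.0324, 0.0302, 0.0301 and 0.0301 in TG hearts A, B, C and E, against 0.0268, 0.0255, 0.0249 and 0.0250 in NTG hearts A, B, D and E. Again heart A was the highest of each group, and the groups did not overlap. Without strand, the part of opposite-strand RNA in this ratio was not tested.

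Since long stretches of mt-Co1 and mt-Nd4 match nuclear copies, the pairs were counted again without these genes. Of the 21 pairs left, 15 had the smallest p of 0.0286. mt-Nd1 over mt-Cytb, a pair in which neither gene shares a window of 50 bases with another annotated transcript, was 0.28 higher in TG hearts on the log2 scale, and mt-Cytb over mt-Rnr1, another such pair, differed by -0.37.

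Levels of different genes were compared per length, as CPM per kilobase of annotated transcript. In NTG hearts mt-Co1 stood highest, at 52364 ± 16678, then mt-Cytb at 44429.7 ± 13849 and mt-Nd1 at 34804 ± 12306 (SD, n = 4). In TG hearts mt-Cytb stood highest, at 42726 ± 5510.0, then mt-Nd1 at 40252 ± 5322 and mt-Co1 at 36540.1 ± 4058 (SD, n = 4). As a part of the summed level per length of the 9 genes, mt-Co1 had 18.9% ± 0.694 in TG hearts and 25.9% ± 0.527 in NTG hearts. These orders of the top 3 genes were the same in each heart of a group, although the levels in CPM per kilobase overlap within their SD. They hold for the annotated length only. Where only windows not shared with other transcripts counted as length, mt-Co1 stood highest in both groups, as given below.

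Lower in the order, mt-Nd2 came next in every heart. mt-Nd5 was the fifth in TG hearts, and mt-Nd4 was the fifth in NTG hearts. In TG hearts mt-Nd4 and mt-Nd6 changed places between hearts, at 6.90% ± 0.0919 and 6.67% ± 0.250 of the summed level per length. The rRNAs were the lowest in all hearts: mt-Rnr1 and mt-Rnr2 had 1.76% ± 0.189 and 1.77% ± 0.160 in TG hearts, and 1.35% ± 0.0686 and 2.05% ± 0.142 in NTG hearts. They did not differ from each other beyond their spread in TG hearts, while mt-Rnr2 was above mt-Rnr1 in each NTG heart. The sources used here do not say whether rRNA was depleted or polyadenylated RNA selected, so the rRNA levels are levels in these libraries, not in the hearts.

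The order depended on the length used. Where only windows of 50 bases not found in other annotated transcripts counted as length, mt-Co1 stood highest in both groups, with 28.7% ± 0.912 of the summed level in TG hearts and 37.4% ± 0.684 in NTG hearts. mt-Nd4 then had 13.6% ± 0.191 in TG hearts and 13.4% ± 0.415 in NTG hearts. With windows of 75 and 100 bases mt-Co1 also stood highest in each heart of both groups. It then had 24.8% and 22.3% in TG hearts, and 32.8% and 29.8% in NTG hearts. The lower mt-Co1 share in TG hearts was present on each length, and which length fits depends on how shared reads were counted. In mean CPM over all 13226 tested genes, mt-Co1 ranked at 1, mt-Cytb at 2, mt-Nd1 at 3, mt-Nd5 at 4 and mt-Nd2 at 5, and mt-Rnr1, the lowest member, at 25.

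The tRNA genes mt-Tc and mt-Tp, both on the light strand, were the other mitochondrially encoded genes in the count tables. mt-Tc, the cysteine tRNA gene, averaged 136 ± 19.1 CPM in TG hearts and 211 ± 80.5 CPM in NTG hearts (SD, n = 4 each; log2 fold change -0.63, SE 0.24, edgeR adjusted p = 0.367). mt-Tp, the proline tRNA gene, averaged 29.6 ± 3.52 CPM in TG hearts and 39.2 ± 12.2 CPM in NTG hearts (log2 fold change -0.40, SE 0.21, edgeR adjusted p = 0.562). Neither passed. Each was then counted against a neighbour, a ratio chosen after the values were seen. Per 1000 counts of mt-Cytb, which lies nearby on the other strand, mt-Tp had 0.607 ± 0.0260 counts in TG hearts and 0.773 ± 0.120 in NTG hearts. The groups did not overlap, with TG heart E at 0.630 and NTG heart D at 0.670, and 8.23% of all pairs of tested genes did not either. mt-Tc per 1000 mt-Co1 counts overlapped.

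Reads of mt-Nd3, the mRNA that human FASTKD1 is known to act on, were not analysed here. The nuclear pseudogene Gm28438 (chr1:24612775-24613119) is the same as mt-Nd3 in 344 of 345 bases. It had 47.4, 25.3, 17.5 and 15.4 CPM in TG hearts A, B, C and E, against 77.3, 46.4, 19.7 and 29.5 CPM in NTG hearts A, B, D and E. The groups overlapped widely (log2 fold change -0.71, SE 0.45, edgeR adjusted p = 0.650). Whether these counts come from mt-Nd3 mRNA or from the copy was not tested.

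The nuclear genes that serve these RNAs were read from the same test across all genes. Of 10 tested mitochondrial transcription genes, such as the polymerase gene Polrmt and the packaging and initiation factor gene Tfam, 0 rose and 0 fell, where 1.01% of all genes rose and 0.242% fell. The log2 fold changes of Polrmt and Tfam were 0.01 and -0.06. The smallest p values belonged to the MTERF family genes Mterf2, at -0.44 (edgeR adjusted p = 0.418), and Mterf3, at -0.14 (edgeR adjusted p = 0.743).

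Of 23 tested genes of mitochondrial RNA processing and stability, 1 rose, Fastkd1 itself, and 22 did not pass. Lrpprc, which stabilises heavy-strand mRNAs, stood at 163 CPM in TG hearts and 161 CPM in NTG hearts. Rexo2, an oligoribonuclease gene, had a log2 fold change of 0.18 (edgeR adjusted p = 0.424) with no overlap between groups. The other tested FASTK family genes, Fastk, Fastkd2, Fastkd3, Fastkd5 and Tbrg4, had log2 fold changes of -0.03, -0.24, -0.21, -0.10 and 0.00, and 0 of the 5 passed.

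Of 17 genes of rRNA modification and mitochondrial ribosome assembly, 0 rose and 0 fell, and the smallest p values belonged to Mpv17l2 (log2 fold change 0.26, edgeR adjusted p = 0.347) and Malsu1 (-0.19, edgeR adjusted p = 0.657). Of 15 genes of mitochondrial DNA replication and maintenance, Slc25a33, a mitochondrial pyrimidine nucleotide carrier gene, rose, and 14 did not pass. It had 15.8, 18.4, 15.9 and 17.5 CPM in TG hearts A, B, C and E, against 9.81, 8.04, 9.94 and 10.7 CPM in NTG hearts A, B, D and E. The groups did not overlap (log2 fold change 0.81, SE 0.11; edgeR adjusted p = 0.00414), but 0 of the 15 genes passed with libraries scaled to the summed counts of the 9 mitochondrial genes. The mitochondrial topoisomerase gene Top1mt had a log2 fold change of -0.45 (edgeR adjusted p = 0.251).

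The mitochondrially encoded subunits are assembled with partners from nuclear genes. Of 7 core complex I genes of the nucleus, 0 rose and 0 fell, and their log2 fold changes ran from -0.37 to -0.23 with a median of -0.30. The smallest p belonged to Ndufs7 (-0.37, edgeR adjusted p = 0.239). Of 11 nuclear genes of complexes III and IV, likewise 0 rose and 0 fell, with a median of -0.18, and the lowest value was -0.55 for Cox7a1 (edgeR adjusted p = 0.130), followed by -0.50 for Cox8b (edgeR adjusted p = 0.218). The median of all genes was 0.01 on the same scale.

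Markers of cell types were checked for what moved beside these results. Over all 13226 tested genes, 408 passed with DESeq2 and 168 with edgeR on library totals only, against 165 in the main edgeR test. All 10 ventricular cardiomyocyte markers were detected, and 0 of them passed with edgeR, against 4 with DESeq2 and 1 with edgeR on library totals only. Their summed level ran from 60797 to 65629 CPM in TG hearts and from 75756 to 86927 CPM in NTG hearts, without overlap, with a median log2 fold change of -0.31 and the smallest p values for Pln (-0.57, edgeR adjusted p = 0.118) and Tnnt2 (-0.39, edgeR adjusted p = 0.143). The summed adipocyte markers were also lower without overlap, at 367 to 405 CPM in TG hearts and 435 to 731 CPM in NTG hearts. Nearly all of this sum was Fabp4, with means of 382 CPM in TG hearts and 550 CPM in NTG hearts. Adipoq, Plin1 and Cfd had means of 1.49 to 1.96 CPM in TG hearts and 1.55 to 3.56 CPM in NTG hearts. Each of these overlapped between groups. Of the 4 adipocyte markers, 0 passed with edgeR, against 1 with DESeq2. Atrial markers were high in TG heart A, at 3104 CPM, and in NTG heart D, at 613 CPM, against 103 to 327 CPM in the other TG hearts and 45.6 to 168 CPM in the other NTG hearts. Endothelial, fibroblast, macrophage, mural, erythroid and skeletal muscle sums overlapped, with 0 members past the threshold, as did nuclear-retained RNAs, at 438 to 886 CPM in TG hearts and 442 to 1057 CPM in NTG hearts. Acta2, a smooth muscle actin gene of the mural list, came nearest to the threshold, at 1.03 (edgeR adjusted p = 0.0505). In that list 1 gene passed with library totals only, with DESeq2, with limma-voom, without NTG heart B and without TG heart A. Of all genes, 167 passed with limma-voom, 218 without NTG heart B and 193 without TG heart A. The other genes with the smallest p of these lists (Emcn, Kdr, Lum, Col1a2, Adgre1, Cd68, Rgs5, Hba-a1, Hbb-bs, Ckm, Acta1, Myl1, Sln, Adipoq, Tug1 and Rian) had edgeR adjusted p of 0.220 to 0.844, where Hba-a1 has a near-identical copy. The part of cell makeup in the proportions among the 9 genes was not tested.

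By the smallest root mean square difference of centred log2 CPM over the 8 libraries, among 8737 nuclear genes, the profiles most like the mean of the 7 mRNAs were those of Eif3e (0.09), 1110032A03Rik (0.10), Eif2a (0.10), Vmp1 (0.11) and Abhd6 (0.11). By the same measure mt-Nd2 and mt-Cytb differed from that mean by 0.03 and 0.04, and mt-Nd5 and mt-Co1 by 0.20 and 0.27. The genes most like the mean of the 2 rRNAs were Mospd1 (0.08), Abhd6 (0.10), Psmc6 (0.12), Trnt1 (0.12) and Eif2a (0.12). Eif2a, for example, had 54.2 to 67.6 CPM in TG hearts and 47.1 to 81.9 CPM in NTG hearts, with its highest value in NTG heart B and its lowest in NTG heart D. Likeness over 8 libraries is a description only.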

How the data were processed

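RNA sequencing of 8 mouse hearts was analysed as deposited: whole-number read counts per Ensembl gene, 1 library per table, not normalized by the authors. The submitters' processing notes name the trimmer cutadapt 1.15, the aligner TopHat2, and GRCm38 and mm10 as builds, 2 names of 1 assembly. The sources used here give neither the read counter, nor its treatment of reads with several matches, nor strand. All genes in the tables reached a CPM of 1.003 in at least 2 libraries, so rarer genes were not analysed here.

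Symbols, lengths and sequences came from GENCODE M21, where 7 identifiers had no entry. Counts were tested in R 4.3.3 with edgeR 4.0.16 (filterByExpr, TMM, quasi-likelihood F test, two-sided), TG against NTG, with Benjamini-Hochberg adjustment over 13226 genes and a threshold of 0.05. Each SE was worked back from the log2 fold change and F. CPM use TMM library sizes, and log2 CPM of single libraries a prior count of 2. Ratios and shares use the counts as they are, with exact permutation tests of log2 ratios. DESeq2 1.42.0 and limma 3.58.1 (voom) were alternatives, beside other scalings, libraries left out and lengths. Windows of 50, 75 and 100 bases were matched against annotated transcripts on both strands.

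The fit was also tested on simulated counts with known changes.

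The members, lists and ratios were chosen with earlier results of these data known. Named genes were all members, Fastkd1, the other mitochondrial genes, the 2 genes with the smallest p in each list, and the 5 nuclear genes nearest in profile to the mRNA mean and to the rRNA mean. A gene that this rule names is not reported here. Outside this rule, and after their values were seen, Polrmt, Tfam, Lrpprc and the FASTK family were named. The ratios of the tRNA genes to their neighbours were also chosen after values were seen.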

Additional observations from a re-analysis of the deposited data

Results flagged for a closer look

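In 8 of 70 groups of 4 hearts examined, 1 heart stood apart from the other 3 by more than the 95% critical value of Dixon's test of the gap over the range; chance flags about 1 in 20 groups. Fastkd1 was 192 CPM in NTG heart D, against 26.3 to 33.8 CPM in the other NTG hearts. In TG heart C, mt-Nd5 held 12.9% of member counts, against 13.2% to 13.3% in the other TG hearts. TG heart A stood apart for mt-Nd6, with 3.04% of member counts against 2.81% to 2.82%. It also stood apart for mt-Nd6 over the other mRNAs, at 0.0324 against 0.0301 to 0.0302, and for mt-Nd1 over mt-Rnr2, at 8.24 against 6.70 to 6.93. TG heart B stood apart for mt-Nd5 over mt-Cytb, at 0.633 against 0.628 to 0.629. In NTG heart B, mt-Nd1 held 13.8% of member counts, against 13.0% to 13.1% in the other NTG hearts. In NTG heart A, mt-Nd5 held 10.2%, against 9.03% to 9.16%. Causes of these values were not tested.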

How the results depend on the processing

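Members past the threshold were 0 of 9 under all scalings and tools except scaling to the summed members, where 2 passed (mt-Nd5 at 0.49 and mt-Co1 at -0.42); on that scale 58 of all genes passed, against 165. The count of all genes was 408 with DESeq2 (249 higher, 159 lower) and 276 without NTG D and TG A together (170 higher, 106 lower), and 112 to 218 with 1 library left out.

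Small CPM changes reversed in places, and the cause was not tested. mt-Nd2 was 0.0555 with library totals only, 0.0443 scaled to the members, 0.0144 without NTG A, 0.150 without NTG B and 0.00272 without TG C, in a range of -0.225 to 0.150 with 1 library left out. mt-Cytb was 0.0511 with totals only, 0.0345 scaled to the members and 0.145 without NTG B (range -0.210 to 0.145). mt-Nd4 was 0.0873 without NTG B (range -0.284 to 0.0873). mt-Nd6 was -0.0103 without NTG D (range -0.0103 to 0.363) and -0.118 without NTG D and TG A together, where mt-Nd1 was -0.0380. The others moved by over 1.5 times with 1 library left out, with no change of sign: mt-Co1 ran from -0.674 to -0.307, mt-Nd5 from 0.221 to 0.576, mt-Rnr1 from 0.154 to 0.552, mt-Rnr2 from -0.449 to -0.0281 and mt-Nd1 from 0.0413 to 0.448. The bounds came without NTG D and without NTG B.

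The difference in the mitochondrial share of counts ran from -1.54 to 2.29 percentage points with 1 library left out and was -2.54 without NTG D and TG A together. The log2 ratio of mRNA to rRNA sums ran from -0.0754 to 0.0305, and was 0.0249 without TG B, 0.0266 without TG E and 0.0305 without NTG A. Pairs past the threshold were 23 to 25 of 36 with 1 library left out. They were 0 without NTG D and TG A together, by construction since 3 against 3 allows no p under 0.1, and 15 of 21 without mt-Co1 and mt-Nd4. The 6 fixed ratios that had passed likewise lost their call there, with the same direction.

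The letters A, B and E occur in both groups. They are not stated to pair hearts, so the main test used no block. Deviations of same-lettered hearts correlated at 0.30, -0.08 and 0.36, which does not decide whether the letters pair hearts. With the replicate block, 0 members and 124 genes passed (103 higher, 21 lower), and Slc25a33 lost its call, as it did on the scale of the members, while 1 gene each of the mural, atrial and nuclear copy lists passed; all 26 pairs had the same sign within letters, and the difference in the mitochondrial share was -0.836 points. Of the erythroid list, 1 gene passed with DESeq2 and without NTG E. Of the nuclear genes of complexes III and IV, 2 passed with DESeq2, 1 with library totals only and 1 without NTG D. Genome-wide matching of windows was not run, and annotated transcripts were used in its place. Each member had at least 98730 counts in every library (the lowest was mt-Rnr1 in NTG D), so counting error is small beside the spread between hearts.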
